A study of Mus musculus with 12 samples.

Results

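The glucocorticoid receptor gene Nr3c1, 4 genes known as its targets (Fkbp5, Tsc22d3, Sgk1 and Dusp1) and 5 immediate early genes (Fos, Jun, Egr1, Btg2 and Ier2) were followed in mouse liver. The 10 genes were taken by symbol from tables of 23420 gene rows, and all 10 were present. RNA was counted by QuantSeq, which reads the 3′ end of polyadenylated transcripts, in livers of 3 wild type females, 3 Siah2-/- (KO) females, 3 wild type males and 3 Siah2-/- males. All mice were on a C57BL/6 background, about 20 weeks old, kept on normal chow in a 12:12 light-dark cycle and sampled at ZT10, that is 10 hours after lights on. The Siah2 loss was whole-body and lifelong. Wild type and KO mice came from related lines set up after an intercross of heterozygotes. The labels describe RNA pooled from 3 mice, whereas the study's methods describe individual livers for these libraries, and each library carries its own mouse number. The question was whether loss of SIAH2, a ubiquitin ligase, changed these transcripts in either sex late in the day.

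The glucocorticoid receptor sits in the cytosol with HSP90 and its co-chaperones until it binds corticosterone, then moves to the nucleus and binds DNA as a dimer. In the liver it drives genes of gluconeogenesis, amino acid breakdown and stress responses, and in nocturnal rodents corticosterone climbs towards the dark phase. Immediate early genes are transcribed within minutes of a hormonal, metabolic or stress signal without new protein synthesis, and their transcripts are short-lived.

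RefSeq promoter windows of GRCm38.p6 were used for 7 of the 10 genes, and windows of Nr3c1, Egr1 and Ier2 were not used. A window spans 250 bases before to 50 bases after an annotated start. The windows were searched on both strands for the full glucocorticoid response element (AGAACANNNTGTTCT), its single hexamer AGAACA, the cAMP response element TGACGTCA, the serum response element known as the CArG box, and the AP-1 element TGAGTCA. A full element contains the hexamer on each strand, so those matches overlap. The full glucocorticoid response element stood in 3 of all 32851 windows (0.009%), and 1 of these 3 was a window of Sgk1. The hexamer alone was in 19.0% of windows, the cAMP response element in 1.79%, the CArG box in 1.63% and the AP-1 element in 5.20%. Among the members, a hexamer was also found in 2 further windows of Sgk1 and in 1 of the 3 windows of Tsc22d3, and the cAMP response element in the windows of Dusp1 and Btg2. The printed stretches are the 250 bases before the start, 5′ to 3′ on the coding strand, with the matched letters in capitals. Sgk1 is shown for the full element (bases -189 to -175 from the start, with a further hexamer upstream), Dusp1 and Btg2 for the cAMP response element (from bases -143 and -166), and Fkbp5 as the member with the largest difference in the female livers, whose window held none of the 5 motifs.
Sgk1, chr10:21993640-21993889, plus strand: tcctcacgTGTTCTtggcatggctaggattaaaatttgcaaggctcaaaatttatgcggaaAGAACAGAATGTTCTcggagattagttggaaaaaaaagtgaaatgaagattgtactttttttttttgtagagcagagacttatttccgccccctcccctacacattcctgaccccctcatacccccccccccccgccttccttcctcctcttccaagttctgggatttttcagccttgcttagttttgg
Dusp1, chr17:26508473-26508722, minus strand: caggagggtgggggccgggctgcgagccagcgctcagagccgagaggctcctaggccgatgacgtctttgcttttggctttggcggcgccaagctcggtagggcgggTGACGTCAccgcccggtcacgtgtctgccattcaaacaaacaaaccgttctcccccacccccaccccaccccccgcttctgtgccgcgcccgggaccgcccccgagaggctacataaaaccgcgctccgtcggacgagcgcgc
Btg2, chr1:134079156-134079405, minus strand: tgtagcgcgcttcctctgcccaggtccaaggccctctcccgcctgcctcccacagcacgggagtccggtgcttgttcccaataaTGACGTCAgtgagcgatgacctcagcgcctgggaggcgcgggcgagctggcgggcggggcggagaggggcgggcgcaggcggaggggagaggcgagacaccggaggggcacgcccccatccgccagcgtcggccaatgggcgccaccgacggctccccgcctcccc
Fkbp5, chr17:28486150-28486399, minus strand: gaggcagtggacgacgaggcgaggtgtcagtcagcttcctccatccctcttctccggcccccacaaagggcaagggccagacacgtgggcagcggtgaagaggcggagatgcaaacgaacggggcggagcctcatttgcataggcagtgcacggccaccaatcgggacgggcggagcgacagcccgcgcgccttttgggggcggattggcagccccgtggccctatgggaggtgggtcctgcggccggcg
The Sgk1 stretch lies inside the annotated span of the gene (chr10:21882184-21999903) and precedes 1 of its 6 annotated starts. The genes themselves span chr17:28398753-28486149 (Fkbp5), chr17:26505591-26508472 (Dusp1) and chr1:134074865-134079155 (Btg2). RefSeq genes that overlap Fkbp5 (1) and Sgk1 (2) were not among the counted symbols. A match is a description of letters, and the counts do not show which start was used.

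The libraries held 1293688 to 4056144 reads. Values are CPM, reads scaled to a common library size by TMM, and mean values carry the SD over 3 mice. Correlation of log2 CPM with the other mice of the group averaged 0.903 for wild type female 1091 and 0.933 to 0.956 for the other 11 libraries, so results that rest on mouse 1091 are also given without it. All 8 hepatocyte markers were detected, Ass1 at only 0 to 7 reads per library, and their summed level was 34509 to 53988 CPM. Transcripts of Siah2 were not called lower in the KO libraries: the female means were 13.6 ± 2.96 (wild type) and 10.7 ± 1.57 CPM (KO), and the male means 21.8 ± 5.18 (wild type) and 13.9 ± 4.08 CPM (KO) (SD, n = 3 mice each). The sources used here do not give where the deletion lies relative to the counted 3′ end, so this level does not check the genotype. The p-values measure the spread between these mice.

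No member was called changed by Siah2 loss in females, in males or in both sexes together, and the change did not pass the test of a difference between the sexes for any member. Few genes of any kind were called by edgeR: 0% in females, 0% in males, 0.0111% with both sexes together and 0.255% for the difference. These 0 calls therefore do not show that the members were unchanged. The largest estimates were a higher level of Fkbp5 in KO females and lower levels of Egr1 and Ier2 in KO males. Between the sexes, 1 of 9 members passed the test, against 11.5% of all genes: Fkbp5 was higher in KO females than in KO males. This call was lost when certain single libraries were left out and when all 12 mice were fitted in 4 groups.

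**Figure D1:**
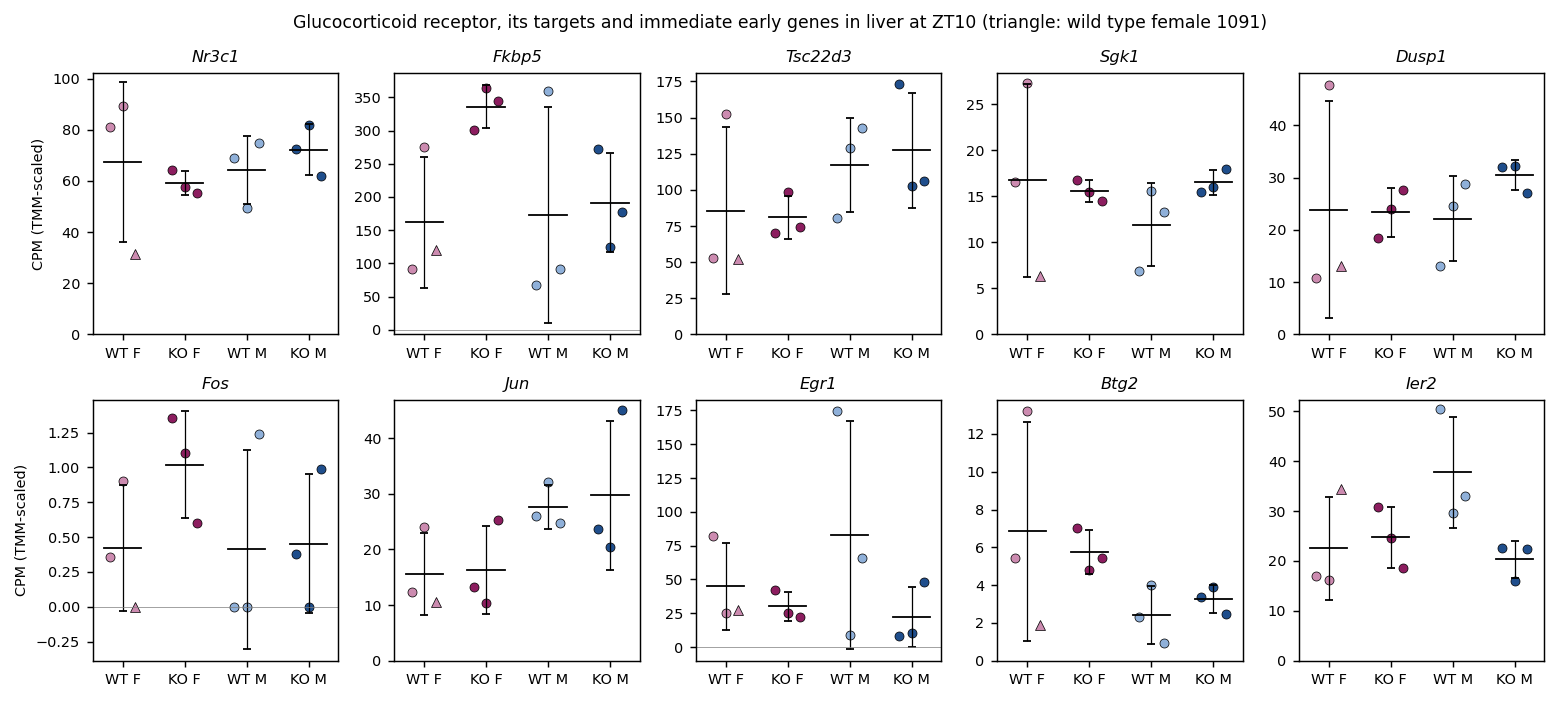
Level of each of the 10 genes in CPM (vertical axis, linear) in wild type (WT) and Siah2-/- (KO) females (F) and males (M). Each point is 1 mouse, the wide bar is the mean and the error bar is the SD (n = 3), and the triangle is wild type female 1091. Fkbp5 in the 3 KO females (300.6 to 363.8 CPM) lies above all wild type females, and Ier2 in the 3 KO males (16.1 to 22.6 CPM) lies below all wild type males.

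Nr3c1 encodes the receptor itself. Its level was 81.2, 89.4 and 31.5 CPM in wild type females 1089, 1090 and 1091, and 64.4, 57.8 and 55.4 CPM in KO females 1070, 1104 and 1105. In males it was 68.8, 49.3 and 74.9 CPM in wild type mice 1055, 1086 and 1087, and 72.4, 82.0 and 62.1 CPM in KO mice 1075, 1076 and 1081. The 4 groups overlapped, with mouse 1091 lowest of all 12. In females the overlap rested on mouse 1091: wild type females 1089 and 1090 lay above all KO females. With edgeR's quasi-likelihood test the log2 fold change was -0.20 (95% interval -0.98 to 0.58, adjusted p = 0.839) in females and 0.15 (-0.28 to 0.57, adjusted p = 0.9999) in males. The female interval was the wider one, and neither interval shows that the receptor transcript was equal between genotypes. With 1 library left out the female estimate fell as low as -0.52, and no alternative called it. Groups ordered by mean ran from KO females (59.2 CPM) through wild type males (64.3) and wild type females (67.4) to KO males (72.2), and no neighbours in this order were separated.

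Fkbp5 encodes an HSP90 co-chaperone that is induced by the receptor and lowers its affinity for hormone, closing a feedback loop. Wild type females 1089, 1090 and 1091 had 92.0, 275.2 and 119.4 CPM, and KO females 1070, 1104 and 1105 had 300.6, 363.8 and 344.3 CPM. Every KO female was above every wild type female, although wild type mouse 1090 came close. The means were 162 ± 98.8 and 336 ± 32.4 CPM (SD, n = 3 mice each), a log2 fold change of 1.04 (SE 0.38, 2.05-fold). This did not pass edgeR's quasi-likelihood test after adjustment (adjusted p = 0.216), nor DESeq2 (adjusted p = 0.106). Levels that did not overlap in this direction were seen for 11.4% of all genes tested in females. The result passed with limma's voom when libraries were weighted by quality (log2 fold change 1.21, adjusted p = 0.0347) and with edgeR when genes were not filtered (1.04, adjusted p = 0.0245), and without mouse 1091 it was 0.87 (adjusted p = 0.144). Without wild type female 1090 it was 1.65 (edgeR's adjusted p = 0.132). In bulk liver, a change in the number of cells of a type and a change in RNA per cell cannot be told apart.

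In males Fkbp5 spread widely within both genotypes. Wild type males 1055, 1086 and 1087 had 67.3, 359.9 and 91.9 CPM, and KO males 1075, 1076 and 1081 had 272.2, 124.1 and 177.9 CPM. A single wild type male, 1086, was as high as the KO females while 1055 and 1087 were the lowest of all 12 mice, so the KO males fell inside the wild type range. The log2 fold change was 0.12 (SE 0.46, 95% interval -0.87 to 1.12, edgeR's adjusted p = 0.9999), and it was 1.25 without mouse 1086 (adjusted p = 0.267). The female change exceeded the male change by 0.91 on the log2 scale (95% interval -0.62 to 2.43, edgeR's adjusted p = 0.634). Ordered by mean, wild type females, wild type males (173 ± 162 CPM) and KO males (191 ± 74.9 CPM, SD, n = 3 mice each) did not separate, and KO females stood above KO males without overlap.

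Tsc22d3 encodes GILZ, a leucine zipper protein that carries part of the anti-inflammatory action of glucocorticoids. Wild type females 1089, 1090 and 1091 had 52.7, 152.1 and 51.9 CPM, and KO females 1070, 1104 and 1105 had 70.4, 98.3 and 74.0 CPM. Wild type males 1055, 1086 and 1087 had 80.3, 128.7 and 142.7 CPM, and KO males 1075, 1076 and 1081 had 173.4, 102.4 and 106.2 CPM. In females the KO values lay between the extremes of the wild type mice, and in males the genotypes overlapped. The log2 fold change was -0.09 (95% interval -0.995 to 0.81) in females and 0.09 (-0.42 to 0.60) in males, with edgeR's adjusted p = 0.942 and 0.9999.

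Dusp1 encodes a phosphatase that switches off MAP kinases and is both a receptor target and an immediate early gene. It was counted at 10.8, 47.7 and 13.1 CPM in wild type females 1089, 1090 and 1091, and at 18.4, 23.9 and 27.7 CPM in KO females 1070, 1104 and 1105. The male values were 13.0, 24.6 and 28.8 CPM in wild type mice 1055, 1086 and 1087, and 32.0, 32.1 and 27.1 CPM in KO mice 1075, 1076 and 1081. As for Tsc22d3, mouse 1090 was far above the other wild type females, with the KO females between. The change was -0.07 (95% interval -1.20 to 1.07) in females and 0.39 (-0.17 to 0.95) in males on the log2 scale, with edgeR's adjusted p = 0.972 and 0.9999.

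Sgk1 encodes a kinase that is induced by glucocorticoids and mineralocorticoids and acts on ion channels and FOXO factors. In females it was at 16.6, 27.3 and 6.4 CPM in wild type mice 1089, 1090 and 1091, and at 16.8, 15.5 and 14.4 CPM in KO mice 1070, 1104 and 1105. In males it was at 6.9, 15.6 and 13.3 CPM in wild type mice 1055, 1086 and 1087, and at 15.5, 16.1 and 18.0 CPM in KO mice 1075, 1076 and 1081. The 6 KO mice were close to each other, whereas the wild type mice included both the lowest and the highest value. These levels rest on 9 to 91 reads per library. The log2 fold change was -0.12 (95% interval -1.10 to 0.87) in females and 0.41 (-0.23 to 1.05) in males, neither called by edgeR's quasi-likelihood test (adjusted p = 0.933 and 0.9999).

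**Figure D2:**
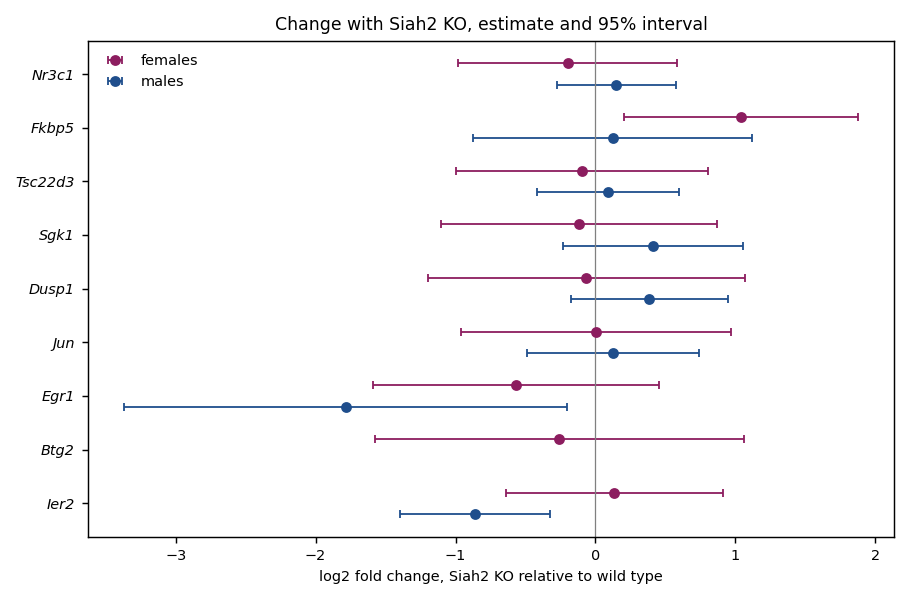
Change with Siah2 loss as log2 fold change of KO relative to wild type (horizontal axis) for the members tested, in females and in males. Points are edgeR estimates and bars are 95% intervals of these estimates, unadjusted for the number of genes. Intervals that leave out 0 are those of Fkbp5 in females and of Egr1 and Ier2 in males, and no adjusted p was under 0.05. The filter on low counts left Btg2 out of the male fit and Fos out of both.

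Fos and Jun encode partners in the AP-1 transcription factor. Fos was barely detected: the libraries held 0 to 5 reads, summing to 4 in wild type females, 9 in KO females, 4 in wild type males and 5 in KO males. It was at 0 in wild type males 1055 and 1086, KO male 1076 and wild type female 1091, where a count of 0 allows a level of up to 2.29, 1.51, 1.30 and 0.956 CPM (3 reads per library, counting error only). No difference in Fos was detectable at this depth, and edgeR's filter on low counts left it out of the reported fits. Jun was at 12.3, 24.0 and 10.5 CPM in wild type females 1089, 1090 and 1091, and at 13.3, 10.3 and 25.3 CPM in KO females 1070, 1104 and 1105. The male levels of Jun were 26.0, 32.2 and 24.8 CPM in wild type mice 1055, 1086 and 1087, and 23.7, 20.4 and 45.1 CPM in KO mice 1075, 1076 and 1081. Genotypes overlapped in both sexes, with 1 high mouse in each KO group. Its log2 fold change was 0.01 (95% interval -0.96 to 0.97) in females and 0.13 (-0.49 to 0.74) in males, with edgeR's adjusted p = 0.998 and 0.9999.

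Egr1 encodes a zinc finger factor that follows growth factor and stress signals and had the widest range of the members tested. Wild type females 1089, 1090 and 1091 had 81.9, 25.5 and 27.1 CPM, and KO females 1070, 1104 and 1105 had 42.5, 25.4 and 22.3 CPM. Wild type males 1055, 1086 and 1087 had 174.3, 8.5 and 65.6 CPM, and KO males 1075, 1076 and 1081 had 7.9, 10.4 and 47.8 CPM. The highest mouse, wild type male 1055, was 22.0-fold above the lowest, KO male 1075, and within the wild type males alone the range was 20.4-fold. Levels overlapped between genotypes in both sexes. In males the log2 fold change was -1.79 (SE 0.74, 95% interval -3.37 to -0.20), with adjusted p = 0.9999 by edgeR's quasi-likelihood test and adjusted p = 0.9999 by DESeq2. It was -0.73 without wild type male 1055, whose library was the smallest, and -3.12 without KO male 1081. With genes not filtered, edgeR called it at -1.75 (adjusted p = 4.0e-11), where 0.179% of all genes were called. No other alternative called it in males, so this small p rests on the choice of filter. In females the change was -0.57 (95% interval -1.59 to 0.46, adjusted p = 0.605). With the sexes together it was -1.25 (SE 0.57, edgeR's adjusted p = 0.866), and -0.67 without mouse 1055.

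Btg2, which encodes an antiproliferative protein linked to mRNA deadenylation, was at 5.4, 13.2 and 1.9 CPM in wild type females 1089, 1090 and 1091, and at 7.0, 4.8 and 5.4 CPM in KO females 1070, 1104 and 1105. In males it was at 2.3, 4.0 and 0.9 CPM in wild type mice 1055, 1086 and 1087, and at 3.4, 3.9 and 2.5 CPM in KO mice 1075, 1076 and 1081. The genotypes overlapped in each sex, and the male libraries held only 3 to 10 reads each, so edgeR's filter left Btg2 out of the male fit. In females the log2 fold change was -0.26 (95% interval -1.58 to 1.06, edgeR's adjusted p = 0.884).

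Ier2, an immediate early gene whose product acts in the nucleus, was at 17.0, 16.2 and 34.4 CPM in wild type females 1089, 1090 and 1091, and at 30.8, 24.7 and 18.7 CPM in KO females 1070, 1104 and 1105. Wild type males 1055, 1086 and 1087 had 50.5, 29.7 and 33.1 CPM, and KO males 1075, 1076 and 1081 had 22.6, 16.1 and 22.4 CPM. All KO males lay below all wild type males, while the females overlapped, with mouse 1091 the highest of them. In males the means were 37.7 ± 11.1 CPM in wild type and 20.4 ± 3.73 CPM in KO mice (SD, n = 3 each), a log2 fold change of -0.86 (SE 0.25), with adjusted p = 0.9999 by edgeR's quasi-likelihood test. Levels that did not overlap in the lower direction were seen for 4.42% of genes tested in males. In females the change was 0.14 (95% interval -0.64 to 0.91, adjusted p = 0.897). The female change exceeded the male change by 1.01 on the log2 scale (SE 0.45, edgeR's adjusted p = 0.323). Without wild type female 1091 this difference was 1.46 and passed edgeR's test (adjusted p = 0.0335), and it passed with quality-weighted limma (1.33, adjusted p = 0.0349).

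Counted over the members, edgeR called 0 of 9 tested in females, where 0% of all 9465 genes were called. Before adjustment, 1 member (Fkbp5) had a p under 0.05, against 15.6% of all genes. DESeq2 called 0 members and 3.60% of genes. In males edgeR called 0 of 8, with 0% of 8823 genes called. There, 2 members (Egr1 and Ier2) were under 0.05 before adjustment, against 4.05% of genes. DESeq2 called 0 members and 0.0370% of genes. For the difference between the sexes in the genotype change, 0 of 9 were called, against 0.255% of genes, and 1 (Ier2) was under 0.05 before adjustment, against 14.1%. DESeq2 called 0 members there and 3.46% of genes. With both sexes together 0 of 9 were called, against 0.0111% of genes, and 1 (Egr1) was under 0.05 before adjustment, against 5.65%, with 0 members and 0.00560% of genes called by DESeq2. The members' median log2 fold change was -0.09 in females and 0.12 in males, and that of all genes tested was -0.03 and -0.01.

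Levels were next compared between females and males of one genotype. In wild type mice 0 of 9 members were called, against 1.39% of genes, and 1 (Jun) was under 0.05 before adjustment, against 15.2%. By DESeq2 it was 0 members and 3.68% of genes. Jun was lower in every wild type female than in every wild type male (log2 fold change -0.79, SE 0.34, edgeR's adjusted p = 0.303), as 11.2% of genes were. Btg2 overlapped between the sexes at 6.84 ± 5.78 and 2.41 ± 1.55 CPM (SD, n = 3 mice each) (log2 fold change 1.60, edgeR's adjusted p = 0.354), and its estimate was 0.69 without wild type female 1090 and 2.28 without wild type male 1086. Ier2 was at -0.68 (SE 0.37, edgeR's adjusted p = 0.430). Without mouse 1091 it was -1.15 and passed edgeR's test (adjusted p = 0.0340), and with quality-weighted limma it was -1.02 (adjusted p = 0.0365).

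In KO mice 1 of 9 members was called by edgeR, against 11.5% of genes, and the same member by DESeq2, against 10.1%. Before adjustment, 3 of 9 were under 0.05, against 26.1% of genes. Fkbp5 was 1.76-fold higher in KO females than in KO males (log2 fold change 0.82, SE 0.22), with adjusted p = 0.0284 by edgeR's quasi-likelihood test and 0.00787 by DESeq2. Levels did not overlap, as for 14.7% of genes in this direction. The comparison shares its 3 KO females with the female genotype comparison. The call was lost when 1 library was left out, namely KO male 1076 (0.59), KO male 1081 (0.76), KO female 1070 (0.89) or KO female 1104 (0.76), and when all 12 mice were fitted in 4 groups (0.81, adjusted p = 0.429). In wild type mice the same comparison of Fkbp5 gave -0.07 (95% interval -1.41 to 1.26), and the difference between these sex effects is the same contrast as the difference of genotype changes given above, which did not pass.

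Tsc22d3 and Jun pointed the other way in KO mice. Tsc22d3 was lower in all KO females than in all KO males, as were 16.0% of genes, with a log2 fold change of -0.65 (SE 0.21, edgeR's adjusted p = 0.0630, DESeq2 adjusted p = 0.0504), and Jun stood at -0.96 (SE 0.34, edgeR's adjusted p = 0.0859) with overlap. Both were called when genes were not filtered (-0.66 and -0.98, adjusted p = 0.0119 and 0.00378). Jun was also called with quality-weighted limma (-1.14) and without KO female 1105 (-1.35), and it was -0.50 without KO male 1081 (edgeR's adjusted p = 0.457). Btg2 did not overlap between KO females (5.75 ± 1.16 CPM) and KO males (3.25 ± 0.73 CPM, SD, n = 3 each), as for 14.7% of genes in this direction. It was not called (0.87, edgeR's adjusted p = 0.219). Egr1 was at 0.41 (SE 0.48), and at 1.75 without KO male 1081, where edgeR called it (adjusted p = 0.0114).

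**Figure D3:**
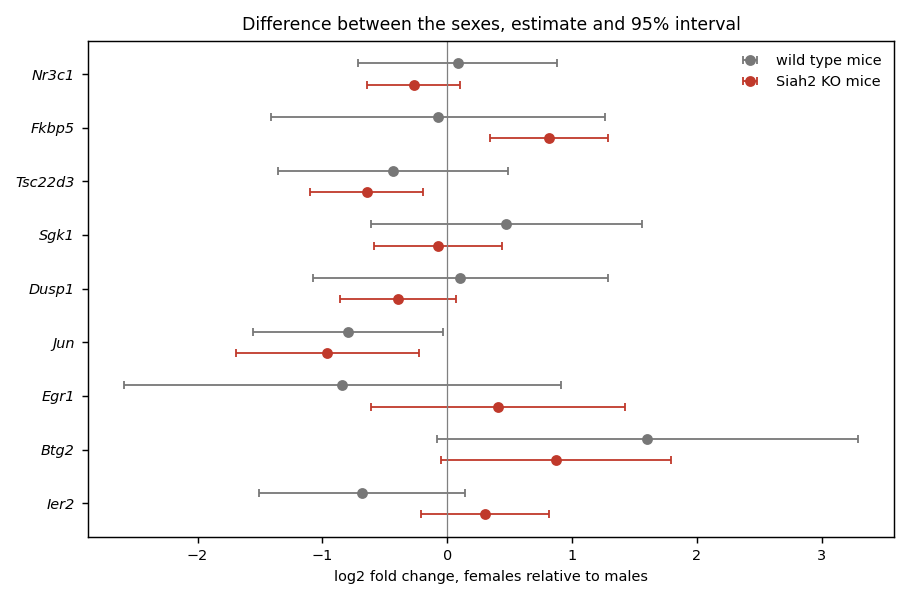
Difference between the sexes as log2 fold change of females relative to males (horizontal axis) for the 9 members tested, in wild type and in KO mice. Points are edgeR estimates and bars are 95% intervals, unadjusted for the number of genes. Fkbp5 in KO mice (0.82) was the only member past an adjusted p of 0.05, in a comparison where 11.5% of all genes passed.

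Cell markers that moved with these comparisons were as follows. In KO mice the summed hepatocyte markers (8 of 8 in the tables) were 42485 to 53988 CPM in females and 34664 to 39975 CPM in males, and the Kupffer cell markers (7 of 8) were 329.9 to 786 and 97.8 to 225 CPM. Endothelial markers (7 of 7) were 308 to 338 and 249.7 to 297 CPM there, and lymphocyte and neutrophil markers (7 of 8) were 8.84 to 15.0 and 1.97 to 6.08 CPM. Among 5 red blood cell markers present, the 4 globin genes were at 0 in all libraries, and the remaining one, Alas2, was at 8.47 to 19.3 CPM in KO females and 103 to 154 CPM in KO males. In wild type mice the ranges of females and males did not overlap for the hepatocyte list (47220 to 49591 and 34509 to 46680 CPM), the bile duct list (9.87 to 45.1 and 47.4 to 56.3 CPM), the lymphocyte and neutrophil list (13.7 to 21.7 and 3.71 to 6.12 CPM) and Alas2 (20.1 to 25.2 and 83.9 to 104.7 CPM). Single hepatocyte markers went both ways there. Mean Alb (22871 and 15165 CPM), Ttr (5590 and 4432) and Fgb (8848 and 6101) were higher in females than in males. Apoa1 (2701 and 3366), Cyp2e1 (3542 and 4773), Serpina1a (4723 and 6464) and Cps1 (169 and 181) were higher in males. In KO mice Alb (19330 and 12835 CPM) was higher in females and Apoa1 (2540 and 3337 CPM) in males. By genotype, the ranges did not overlap for the red blood cell list in females (20.1 to 25.2 CPM in wild type) and for the bile duct list in males (47.4 to 56.3 CPM in wild type, 27.8 to 36.2 CPM in KO). Their part in the members' values was not tested.

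Members differed in how much they scattered between mice of one group. The coefficient of variation within a group, as the median over the 4 groups, was 0.87 for Egr1, 0.50 for Fkbp5, 0.46 for Jun, 0.43 for Btg2, 0.30 for Tsc22d3, 0.28 for Dusp1, 0.27 for Ier2, 0.23 for Sgk1 and 0.17 for Nr3c1. Set beside genes within 2-fold of the same mean level, Egr1 lay at the 99.9th percentile of 2871 genes, Fkbp5 at the 99.4th of 1093, Jun at the 98.0th of 3411 and Tsc22d3 at the 94.8th of 1935, while Btg2 was at the 66.9th of 2814. Sgk1 and Nr3c1, at the 48.2nd and 57.7th percentiles, scattered like an ordinary gene of their level. Egr1, Fkbp5 and Jun were thus among the genes of their level that varied most from mouse to mouse.

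Among 36 pairs of the 9 members, the closest over the 12 mice was that of Tsc22d3 and Dusp1. Pearson's r of log2 CPM was 0.83 (permutation p = 0.00087, adjusted over 36 pairs 0.0313) and Spearman's rho was 0.80 (permutation p = 0.00248, adjusted 0.0893). By r 1 pair passed the adjusted threshold and by rho 0 passed. The r was 0.67 without the 2 mice farthest from the median of Tsc22d3, 0.79 without mouse 1091, 0.94 in the 6 females, 0.71 in the 6 males and 0.89 after subtracting group means. The most negative pair by r was Sgk1 and Ier2, with r = -0.75 (permutation p = 0.00337, adjusted 0.0607) and rho = -0.66 (permutation p = 0.0228, adjusted 0.274). That r was -0.50 without the 2 farthest mice, -0.73 in females and -0.85 in males. By rho it was Fkbp5 and Egr1, with rho = -0.67 (permutation p = 0.0205, adjusted 0.274) and r = -0.65 (permutation p = 0.0247, adjusted 0.194), and that r was -0.39 without the 2 mice farthest from the median of Fkbp5.

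**Figure D4:**
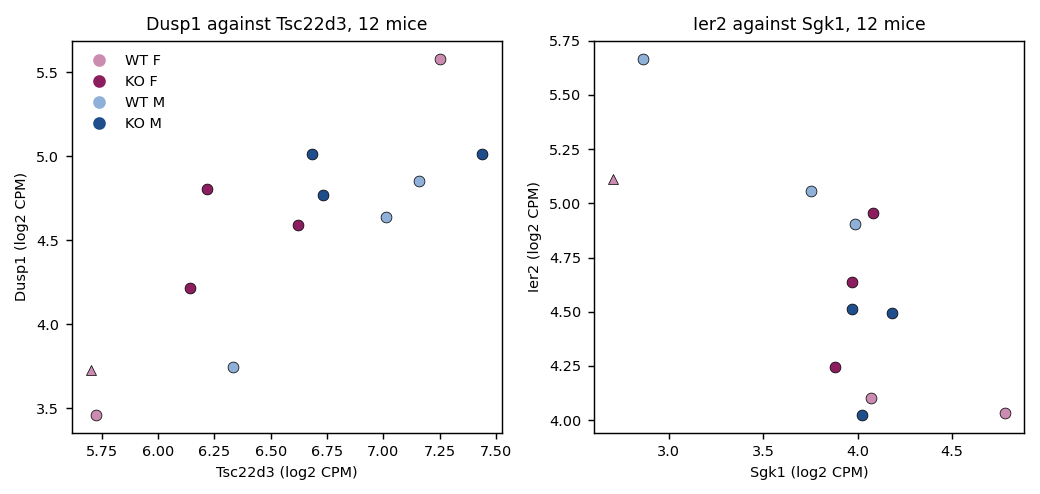
Levels of Dusp1 against Tsc22d3 (left) and of Ier2 against Sgk1 (right) in log2 CPM, 1 point per mouse (n = 12), coloured by group, with wild type female 1091 as a triangle. Dusp1 climbs with Tsc22d3 (r = 0.83), and Ier2 falls as Sgk1 climbs (r = -0.75), where the 2 mice with the least Sgk1 are 1091 and wild type male 1055.

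For each member with a mean of at least 10 CPM, the gene with the most similar pattern over the 12 mice was sought among 6716 genes by Spearman's rho of log2 CPM. Nr3c1 was closest to Ep400 (0.95), Fkbp5 to Por (0.91), Tsc22d3 to Zmiz1 (0.94), Sgk1 to Osbpl1a (0.94), Dusp1 to Mcmbp (0.92), Jun to Gtf2ird1 (0.90), Egr1 to Vps72 (0.89) and Ier2 to Coasy (0.94). None of the closest genes was another member, and Tsc22d3 ranked 15th for Dusp1 while Dusp1 ranked 27th for Tsc22d3. These are descriptions over 12 libraries that differ in depth and group, and each closest gene was chosen as the highest of many.

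The hormone supply and receptor machinery was taken as a list of 21 genes: enzymes that make or break corticosterone in the liver, its plasma carrier, chaperones of the receptor and its coregulators. The gene of the plasma carrier held only 0 to 5 reads per library, and edgeR's filter on low counts left it out of the reported fits. By genotype edgeR called 0 of 19 tested in females and 0 of 18 in males, against 0% of all genes in each sex. In females 4 of the 19 had estimates above 0, against 47.3% of all genes, and 15 below (median log2 fold change -0.31, all genes -0.03). The lowest p was that of Stip1, the HSP70-HSP90 organizing co-chaperone, at 40.8, 33.9 and 42.4 CPM in wild type females 1089, 1090 and 1091 and 17.3, 20.3 and 16.3 CPM in KO females 1070, 1104 and 1105. All KO females were below all wild type females, as for 11.9% of genes, with a log2 fold change of -1.13 (SE 0.24, edgeR's adjusted p = 0.0962, DESeq2 adjusted p = 0.0270). In males Stip1 was at 0.06 (SE 0.25), and the difference between the sexes was -1.18 (edgeR's adjusted p = 0.137). Ncoa1, a coactivator, had the lowest p of the list in males (0.57, SE 0.28, edgeR's adjusted p = 0.9999).

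The same list was next compared between the sexes. In KO mice 7 of 18 tested were called lower in females and 0 higher, against 5.78% and 5.69% of all genes. Among them were the chaperones Hsp90aa1 (log2 fold change -1.23), Hsp90ab1 (-0.64) and Stip1 (-0.90), the steroid 5-alpha-reductase Srd5a1 (-1.78), H6pd, which supplies NADPH to the enzyme that regenerates active glucocorticoid (-1.12), and the coactivator Crebbp (-0.68). DESeq2 called these 6 as well. Srd5a1 was at 31.3 to 44.5 CPM in KO females and 105 to 143 CPM in KO males, and H6pd at 323 to 396.7 and 718 to 798 CPM. In wild type mice edgeR called 0 of 19, against 1.39% of all genes. Before adjustment 3 were under 0.05, against 15.2% of all genes, and these 3 were lower in females. Of them DESeq2 called Srd5a1 (-1.41, DESeq2 adjusted p = 0.0323), with 3.68% of all genes called. Wild type female 1091 stood apart from the other wild type females in Srd5a1 (87.0 CPM against 27.3 and 37.2) and H6pd (577 CPM against 234.7 and 243). Without it edgeR called 4 of 19 in wild type mice, with 7.73% of all genes called: Srd5a1, H6pd and Fkbp4 lower and Hsd11b1 higher in females, of which Fkbp4 and Hsd11b1 are named after their values were seen. In the female genotype comparison 1 gene of the list, Stip1, was then called, with 9.64% of all genes called.

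**Figure D5:**
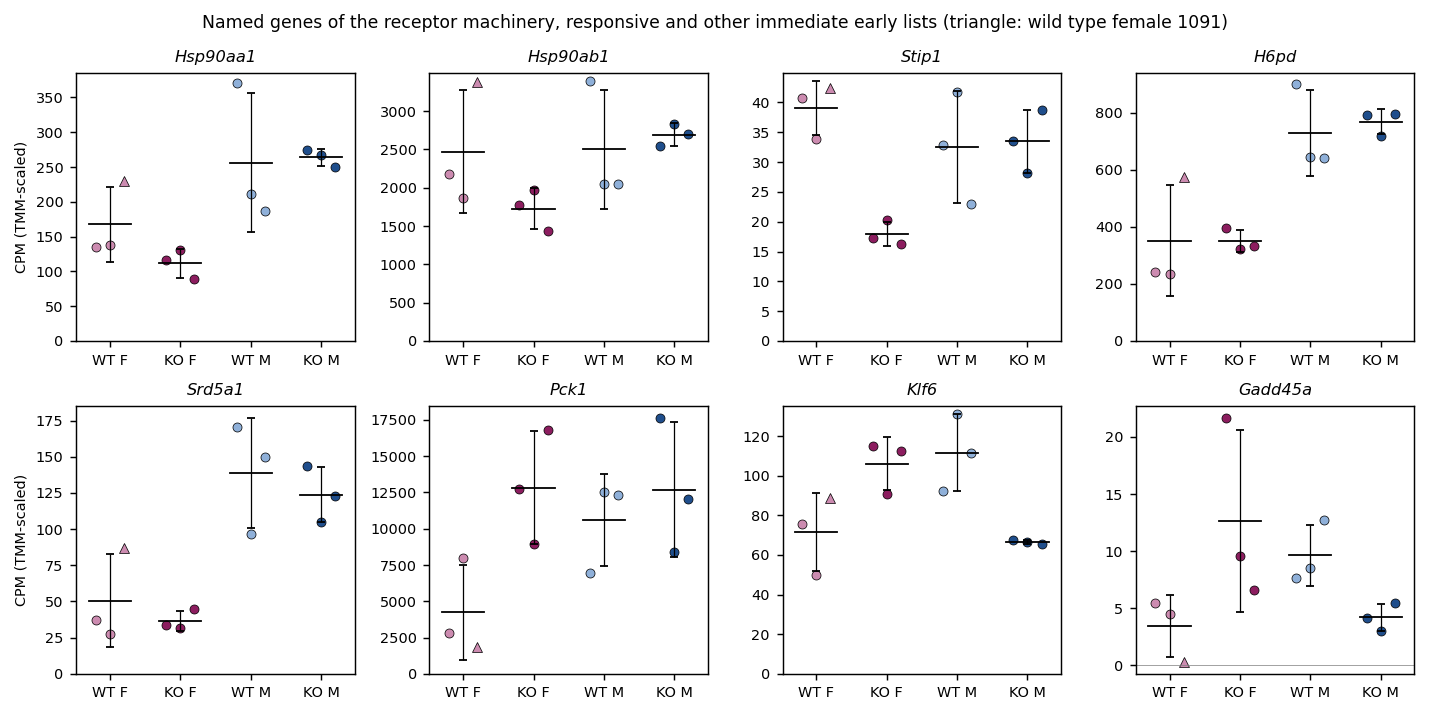
Levels in CPM (vertical axis, linear) of 8 genes named from the lists, in WT and KO females (F) and males (M). Each point is 1 mouse, the wide bar is the mean, the error bar is the SD (n = 3) and the triangle is wild type female 1091. Stip1 in KO females lies below all other mice, and Srd5a1 and H6pd in KO females lie below all KO males.

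Other genes known to respond to glucocorticoids made a list of 26. By genotype edgeR called 0 of 23 in females and 0 of 22 in males, where 0% of all genes were called. Pck1, the rate-limiting enzyme of gluconeogenesis, was at 2836, 7972 and 1879 CPM in wild type females 1089, 1090 and 1091 and at 12709, 8974 and 16788 CPM in KO females 1070, 1104 and 1105. All KO females were above all wild type females, as for 11.4% of genes tested in females. Mouse 1090, which was high in Fkbp5, Tsc22d3 and Dusp1, was also the highest wild type female here. The log2 fold change of Pck1 was 1.59 (SE 0.51, edgeR's adjusted p = 0.190, DESeq2 adjusted p = 0.0183) in females and 0.25 (SE 0.25, edgeR's adjusted p = 0.9999) in males. The lowest p of the list in males was that of the metallothionein Mt1 (1.29, SE 0.43, edgeR's adjusted p = 0.9999). The list's median log2 fold change was -0.22 in females, with 10 estimates above 0 and 13 below, and 0.20 in males.

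Between the sexes Mt1 and Mt2, which bind zinc and copper, were the responsive genes called in both genotypes. Mt2 was at 2105 to 2780 CPM in wild type females and 37.5 to 316 CPM in wild type males (log2 fold change 4.18, edgeR's adjusted p = 0.0196), and at 809 to 2653 and 191 to 376 CPM in KO mice (2.38, adjusted p = 0.000515). Mt1 gave 3.73 in wild type and 1.80 in KO mice (edgeR's adjusted p = 0.0151 and 0.00133). In KO mice 3 of 22 were called higher in females and 3 lower, against 5.69% and 5.78% of all genes. The third higher gene was the insulin-like growth factor binding protein Igfbp1 (0.93). The 3 lower were the NF-kappaB inhibitor Nfkbia (-0.52), the lipase inhibitor Angptl4 (-0.73) and the transcription factor Klf9 (-0.65). Without mouse 1091, edgeR called Cebpb higher in KO females by genotype, a gene named after its values were seen, and Mt1 and Mt2 again between wild type sexes. In these 2 comparisons 9.64% and 7.73% of all genes were then called.

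A list of 41 further immediate early genes, of which Zfp36 and Errfi1 are also on the responsive list, gave 0 called by genotype of 26 tested in females and 23 in males. Of all genes, 0% were called in either sex. Klf6, a Krüppel-like factor, had the lowest p in males. It was at 92.5, 131 and 111 CPM in wild type males 1055, 1086 and 1087 and at 67.5, 66.4 and 65.6 CPM in KO males 1075, 1076 and 1081. All KO males were below all wild type males, as for 4.42% of genes (log2 fold change -0.77, SE 0.17, edgeR's adjusted p = 0.555). In females every KO mouse was above every wild type mouse (90.6 to 115 against 50.1 to 88.9 CPM), as for 11.4% of genes. The female log2 fold change was 0.56 (SE 0.26, edgeR's adjusted p = 0.345). The difference between the sexes was 1.32 (SE 0.31), with adjusted p = 0.0829 by edgeR and 0.00848 by DESeq2. Gadd45a, a growth arrest and DNA damage gene, gave a difference of 3.13 (SE 0.82), with adjusted p = 0.107 by edgeR and 0.0224 by DESeq2, on 1 to 80 reads per library.

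Klf6 and Gadd45a were thus the genes of this list whose genotype change passed the test of a difference between the sexes by DESeq2, which called 3.46% of all genes. By edgeR 0 of the 27 list genes tested were called, against 0.255% of all genes. Klf2, another Krüppel-like factor, had the lowest p in females (log2 fold change -1.51, SE 0.52, edgeR's adjusted p = 0.203). In KO mice 2 of 24 were called, against 11.5% of all genes. Both were higher in females, as 5.69% of all genes were, namely Klf6 (0.68) and Gadd45a (1.61, edgeR's adjusted p = 0.0148 and 0.0287). Between wild type sexes 0 of 26 were called, against 1.39% of all genes. Without mouse 1091 edgeR called Klf2 and Rhob lower and Mcl1 higher in KO females, where 9.64% of all genes were called. It called Klf6, Gadd45a and Mcl1 for the difference, where 5.15% of all genes were called. It also called Dusp6 and Mcl1 between wild type sexes, where 7.73% of all genes were called. Rhob, Mcl1 and Dusp6 are named after their values were seen.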

How the data were processed

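QuantSeq 3′ mRNA libraries were made from individual livers of 12 mice (3 per sex and genotype). The deposited values are raw read counts per gene symbol, 1 table per sex, which the authors trimmed, mapped and counted on Illumina's BaseSpace; the submitters' processing notes name STAR, DESeq and mm10, with no versions. No unique molecular identifiers were counted, so limits at 0 cover counting error only. Counts of 27 symbols turned into dates (at most 0.272% of a library) stayed in the library totals.

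Counts were filtered (filterByExpr), scaled (TMM) and tested two-sided with edgeR 4.0.16 quasi-likelihood fits in R 4.3.3, adjusted by Benjamini-Hochberg over all genes tested, at 0.05. The 6 comparisons were fitted on their own mice, except the difference of genotype changes, fitted on all 12. Alternatives used DESeq2 1.42.0, limma 3.58.1 (voom with quality weights), RLE scaling, no filter, thinning to 1293688 reads, 4-group fits, a term for sex and each library left out. Scripts were tested on simulated counts. Log2 CPM used a prior count of 0.5, pairs 100000 permutations. Promoters and positions are RefSeq's for GRCm38.p6, the assembly also called mm10; 21571 of 23418 unique symbols matched. Named genes are the 10 members, list genes with an adjusted p under 0.05 by edgeR or DESeq2 in any comparison, the lowest p of each list in females and in males, and the gene most like each member; 1 list gene is not reported here. Members and lists were chosen with earlier results of these data known. Genotype followed the labels, and counting strand was not given in the sources used here.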

Additional observations from a re-analysis of the deposited data

How the results depend on the processing

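Over 36 fold changes of single members, 478 alternatives were computed, of which 426 kept the direction and the side of the threshold, 35 turned direction and 17 crossed the threshold. With quality-weighted limma 1 member was called in females (11.2% of all genes) and 1 for the difference between the sexes (5.69%). It called 1 between wild type sexes (8.59%) and 2 between KO sexes (13.3%). Without the filter the counts were 1 in females (2.82% of all genes), 1 in males (0.179%) and 3 between KO sexes (7.56%). With all 12 mice in 4 groups 0 were called between KO sexes (3.59%). Leaving out 1 library gave 0 to 1 members called for the difference and 0 to 1 between wild type sexes. Each of these calls came without mouse 1091 (5.15% and 7.73% of all genes). Between KO sexes it gave 0 to 2, with 2 called without KO female 1105 (11.2%). The cause was not tested. With both sexes together no alternative called a member.

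No estimate that turned direction was called, before or after. With quality-weighted limma the female log2 fold changes of Tsc22d3, Dusp1 and Jun became 0.013, 0.11 and -0.27, and thinning turned the difference of Jun to 0.042. With 1 library left out, the female estimates ranged from -0.52 to 0.058 for Nr3c1, -0.35 to 0.61 for Tsc22d3, -0.49 to 0.43 for Sgk1, -0.41 to 0.93 for Dusp1, -0.41 to 0.46 for Jun, 0.75 to 1.65 for Fkbp5, -0.91 to 0.19 for Egr1, -0.69 to 0.66 for Btg2 and -0.063 to 0.61 for Ier2. The male estimates ranged from 0.0077 to 0.30 for Nr3c1, 0.21 to 0.63 for Sgk1 (0.055 after thinning), 0.17 to 0.64 for Dusp1, -0.23 to 1.25 for Fkbp5, -0.18 to 0.27 for Tsc22d3 and -0.32 to 0.33 for Jun. The differences ranged from -0.23 to 1.48 for Fkbp5, -0.44 to 0.48 for Tsc22d3, -0.90 to 0.0026 for Sgk1, -0.81 to 0.49 for Dusp1, -0.52 to 0.31 for Jun and -1.42 to 0.17 for Btg2. Leaving out wild type female 1090 turned Nr3c1, Tsc22d3, Sgk1, Dusp1, Btg2 and Ier2 in females. An arm left with fewer mice was assumed to vary like the other.

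Over all genes, the count called in females was 0 with edgeR, 301 with DESeq2, 1058 with quality-weighted limma, 484 without the filter, 427 with 4 groups and 936 without mouse 1091. Between wild type sexes it was 130 with edgeR, 338 with DESeq2, 802 with quality-weighted limma, 536 without the filter, where the median log2 fold change of all genes was 0.15 against 0.05, and 740 without mouse 1091. Between KO sexes it was 1044 with edgeR, 884 with DESeq2 and 352 with 4 groups. For the difference it was 25 with edgeR, 265 with DESeq2 and 522 without mouse 1091. No paired analysis was possible because the groups share no mouse numbers. Depth limited Fos in all mice and Btg2 in males.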
